A study of Mus musculus with 8 samples.

Results

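The genes described here encode acute phase proteins: the serum amyloid A genes Saa1, Saa2, Saa3 and Saa4, the orosomucoid genes Orm1, Orm2 and Orm3, and the genes of lipocalin 2 (Lcn2), haptoglobin (Hp) and C-reactive protein (Crp). They were chosen by name and no measured value entered the rule, but earlier results of these data were known at the time. They are 10 of the 52636 Ensembl genes counted in each liver. The livers came from 8 male wild-type C57BL/6J mice. Of these, 4 received AAV8-TBG-GFP (mice 303, 311, 314 and 315) and 4 received AAV8-TBG-AGXT (mice 308, 309, 316 and 319), by intraperitoneal injection at 7 weeks of age. All 8 mice then ate a diet high in fat, fructose and cholesterol (the MASH diet, which induces metabolic dysfunction-associated steatohepatitis) from 8 weeks of age for 24 weeks, so the controls shared the diet and a virus with the treated mice. AGXT is alanine-glyoxylate aminotransferase, and the study asked whether raising it in hepatocytes improves steatohepatitis. The transgene was human AGXT under the thyroxine-binding globulin promoter, which is active in hepatocytes, while RNA was taken from whole liver, with 1 library per mouse.

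Acute phase proteins are plasma proteins whose production by hepatocytes changes within hours of infection, injury or inflammation. Interleukin 6 acts through STAT3, and interleukin 1 and tumour necrosis factor act through NF-kB, with C/EBP factors joining both at many of the promoters. In mice the inducible serum amyloid A genes and Orm, Lcn2 and Hp respond strongly or moderately, whereas Crp, the classical marker in human plasma, responds weakly. Saa3 is also made by macrophages and fat cells, Lcn2 by neutrophils, macrophages and injured epithelium, and Saa4 is the constitutive member of its family.

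Sequencing depth was 19747909 to 28780140 pairs assigned to genes in AAV8-GFP mice and 17095433 to 23940200 in AAV8-AGXT mice. AAV8-AGXT mouse 308 had the lowest share of tallied pairs on genes, 56.3%, against 62.4% to 69.1% in the other mice, and it was the lowest of the 8 mice in 20.6% of the 15248 genes tested and the highest in 23.8%. Mouse Agxt was at 164 ± 15.8 CPM (counts per 1000000 counted pairs, SD, n = 4) in AAV8-GFP mice and at 305 ± 98.3 CPM in AAV8-AGXT mice, and it rose by a log2 fold change of 0.90 (SE 0.22, adjusted p = 0.0489, edgeR), a call kept in 1 of 8 fits with a mouse left out. This row counts the mouse gene, and how many reads of the human transgene it holds was not tested. Hepatocyte markers had higher means in AAV8-AGXT livers for 10 of 10 genes, with summed levels of 8601 to 11220.0 CPM in AAV8-GFP mice and 12285 to 14615 CPM in AAV8-AGXT mice, and Cps1 and Arg1 of the urea cycle passed the test, in 4 and 2 of the 8 fits with a mouse left out. Of these hepatocyte markers, 8 had an unadjusted p under 0.05 (edgeR), against 26.2% of all genes tested. DESeq2 called 8 higher, against 12.9% called in either direction among the genes it gave a value for. In 7 the groups did not overlap, against 16.6% of all genes tested. In whole liver, fewer cells of a type and less RNA per cell cannot be told apart.

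The Saa genes lay within 42.3 kb of chromosome 7 and the Orm genes within 21.3 kb of chromosome 4 (GRCm38, GENCODE M21). Saa1 (ENSMUSG00000074115) spanned chr7:46740497-46742980 on the minus strand and Saa2 (ENSMUSG00000057465) chr7:46751790-46754313 on the plus strand, so that they are transcribed away from each other. Saa4 (ENSMUSG00000040017) spanned chr7:46727998-46732603 and Saa3 (ENSMUSG00000040026) chr7:46711998-46715700, both on the minus strand. Orm1 (ENSMUSG00000039196, chr4:63344560-63348163), Orm3 (ENSMUSG00000028359, chr4:63356162-63359511) and Orm2 (ENSMUSG00000061540, chr4:63362449-63365878) stood in that order on the plus strand. Lcn2 (ENSMUSG00000026822) spanned chr2:32384633-32388252 on the minus strand, Hp (ENSMUSG00000031722) chr8:109575128-109579172 on the minus strand and Crp (ENSMUSG00000037942) chr1:172698055-172833031 on the plus strand. No exon of any of the 10 genes overlapped an exon of another gene on either strand.

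The 250 bases before the transcription start are shown for 6 genes, because they carry the region where acute phase factors are known to act. They also set the related pairs Saa1 and Saa2, and Orm2 and Orm3, beside Lcn2 and Crp. Sequences are from RefSeq (GRCm38.p6), in the direction of transcription, and entries were found for 8 of the 10 genes. The RefSeq starts of Saa2 and Lcn2 lie inside the longer gene spans of GENCODE given above. Capitals mark matches to the C/EBP pattern TTGCNNAA on either strand or to the TATA pattern TATAAA on either strand. The windows are chr7:46742981-46743230 (minus strand, Saa1), chr7:46751583-46751832 (plus, Saa2), chr4:63362199-63362448 (plus, Orm2), chr4:63355908-63356157 (plus, Orm3), chr2:32387740-32387989 (minus, Lcn2) and chr1:172697806-172698055 (plus, Crp).
Saa1: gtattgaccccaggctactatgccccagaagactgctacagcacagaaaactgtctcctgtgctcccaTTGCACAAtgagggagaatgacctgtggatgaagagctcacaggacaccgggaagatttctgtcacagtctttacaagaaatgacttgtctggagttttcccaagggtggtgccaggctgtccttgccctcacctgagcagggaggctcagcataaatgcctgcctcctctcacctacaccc
Saa2: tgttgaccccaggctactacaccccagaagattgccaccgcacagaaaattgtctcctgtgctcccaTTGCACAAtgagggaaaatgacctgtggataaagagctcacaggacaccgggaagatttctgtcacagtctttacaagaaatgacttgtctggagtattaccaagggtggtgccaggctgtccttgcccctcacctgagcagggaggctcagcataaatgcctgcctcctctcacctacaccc
Orm2: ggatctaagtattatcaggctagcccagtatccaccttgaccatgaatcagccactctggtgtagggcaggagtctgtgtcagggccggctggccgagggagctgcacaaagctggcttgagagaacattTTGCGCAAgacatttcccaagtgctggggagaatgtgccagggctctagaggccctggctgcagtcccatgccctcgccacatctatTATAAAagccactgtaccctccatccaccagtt
Orm3: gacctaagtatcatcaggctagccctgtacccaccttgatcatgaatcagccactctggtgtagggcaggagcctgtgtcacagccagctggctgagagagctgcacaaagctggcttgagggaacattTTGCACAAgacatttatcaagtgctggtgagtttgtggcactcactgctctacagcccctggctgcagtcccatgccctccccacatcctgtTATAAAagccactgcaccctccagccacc
Lcn2: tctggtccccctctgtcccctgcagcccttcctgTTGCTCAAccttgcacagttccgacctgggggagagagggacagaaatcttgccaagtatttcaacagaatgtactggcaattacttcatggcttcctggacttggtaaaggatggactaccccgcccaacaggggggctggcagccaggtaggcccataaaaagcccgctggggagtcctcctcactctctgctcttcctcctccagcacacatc
Crp: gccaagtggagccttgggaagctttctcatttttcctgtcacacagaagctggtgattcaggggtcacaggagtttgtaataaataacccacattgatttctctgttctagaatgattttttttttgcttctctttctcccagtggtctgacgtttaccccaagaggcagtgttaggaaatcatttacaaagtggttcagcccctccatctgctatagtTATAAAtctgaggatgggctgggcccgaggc

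The C/EBP pattern occurred in the windows of Saa1, Saa2, Saa3, Saa4, Orm2, Orm3 and Lcn2, which is 7 of the 8 windows found, and not in that of Crp. Of 32851 mouse promoter windows of the same length, 9.56% held it. The windows of Saa1 and Saa2 resemble each other, as do those of Orm2 and Orm3, so the 7 are not independent. Saa4, the constitutive gene, held the pattern at 245 and at 52 bases before the start. In Saa1 and Saa2 it was the same 8 letters, starting 182 and 183 bases before the start. In Orm2 and Orm3 it started 120 and 121 bases before the start, and the Orm2 match reads the same on both strands. The TATA pattern was found in Orm2, Orm3 and Crp, 33, 29 and 31 bases before the start, and in 12.4% of all windows. Neither the NF-kB pattern (GGGA, any 2 bases, then TTCC, in 1.21% of all windows) nor the STAT pattern TTCNNNGAA (7.02%) occurred in any of the 8 windows, searched on both strands, which says only that these letters are not there. The Saa1 and Saa2 windows were 94.8% identical over 251 aligned columns and the Orm2 and Orm3 windows 85.5% identical over 255, against 48.9% for Saa1 and Saa3.

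No acute phase gene of the 10 passed the test between AAV8-AGXT and AAV8-GFP livers, against 4.35% of all genes tested (edgeR quasi-likelihood test, adjusted p under 0.05), 2.45% higher and 1.9% lower. The groups did not overlap in 0 of the 10, against 16.6% of all genes. Their adjusted p-values ran from 0.103 for Crp to 0.944 for Orm1, and 1 gene, Crp, had an unadjusted p under 0.05, against 26.2% of all genes tested. DESeq2 called 1 of the 10, Crp (adjusted p = 0.0402), against 12.9% of all genes it gave a value for, and gave none for Saa1 and Saa2. What the livers showed was a wide spread among mice given AAV8-AGXT. Mouse 319 had the highest level of all 8 mice in 8 of the 10 genes, against 11.9% of all genes tested, and mouse 308 had the lowest in 7, against 20.6%. In 7 of the 10 genes (Saa1, Saa2, Orm1, Orm2, Orm3, Lcn2 and Hp) each of the other 3 AAV8-AGXT mice was below every AAV8-GFP mouse, against 9.02% of genes for which this held and 19.6% for a gap in either direction. This pattern was seen after the values were known, and mouse 319 is left out below only to show how far 1 library carries each value.

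**Figure D1:**
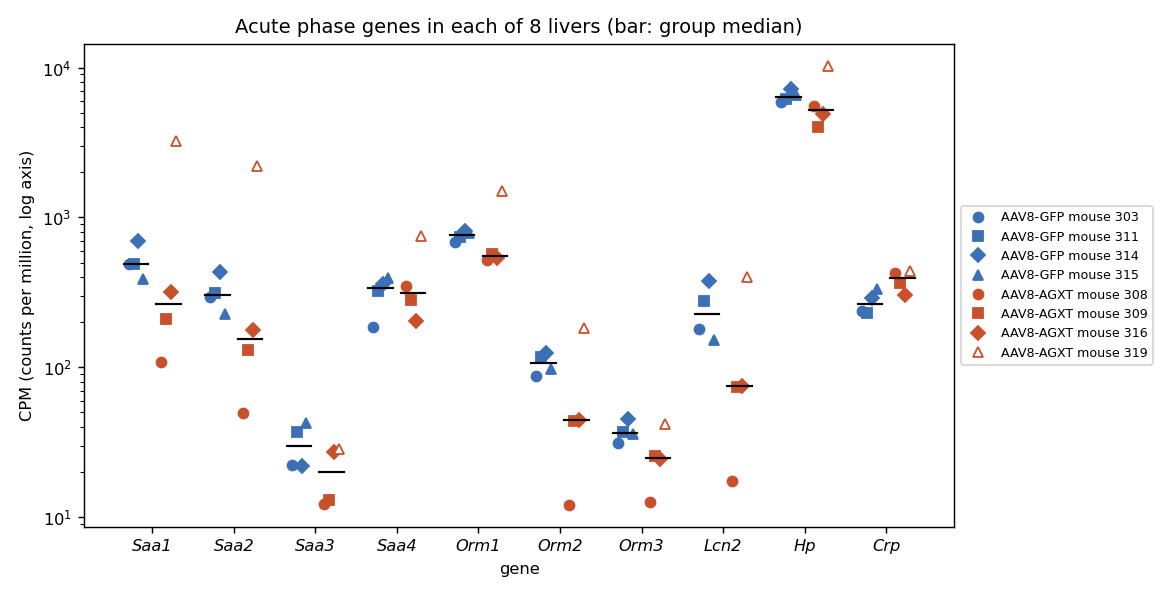
Level of each gene in each of the 8 livers, in CPM on a log axis, with AAV8-GFP mice in blue, AAV8-AGXT mice in red and a black bar at each group's median. The open triangle, AAV8-AGXT mouse 319, is the highest point for 8 of the 10 genes, and the other red points lie below all blue points for 7.

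Saa1 and Saa2 encode the inducible serum amyloid A proteins that are carried on high-density lipoprotein in plasma. In the order of mice given above, Saa1 was at 489, 489, 699 and 390.1 CPM in AAV8-GFP mice and at 108, 210.1, 320.1 and 3221 CPM in AAV8-AGXT mice. Saa2 was at 295, 311, 431 and 227 CPM in AAV8-GFP mice and at 49.8, 131, 178 and 2198 CPM in AAV8-AGXT mice. Mouse 319 stood above every other mouse and mice 308, 309 and 316 below every AAV8-GFP mouse, so the AAV8-GFP group lay inside the range of the AAV8-AGXT group for both genes. In mouse 319 the level of Saa1 was 4.61 times and that of Saa2 5.10 times that of the next mouse, AAV8-GFP mouse 314. Over all 8 mice Saa1 spanned 29.9-fold and Saa2 44.1-fold from lowest to highest.

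The fitted log2 fold change, AAV8-AGXT over AAV8-GFP, was 0.90 for Saa1 (SE 0.89, adjusted p = 0.555, edgeR) and 1.02 for Saa2 (SE 0.96, adjusted p = 0.536, edgeR). Group means were 517 ± 130 and 965 ± 1507 CPM for Saa1 (SD, n = 4 each), while the group medians ran the other way, 489 and 265 CPM. For Saa2 the means were 316 ± 84.8 and 639 ± 1041 CPM (SD, n = 4 each), and the medians 303 and 154 CPM. Without mouse 319 the log2 fold change was −1.28 for Saa1 (SE 0.35, adjusted p = 0.109, edgeR) and −1.40 for Saa2 (SE 0.39, adjusted p = 0.114, edgeR). The direction of both genes rested on 1 library and on the tool, since limma-voom with all 8 mice gave −0.42 for Saa1 and −0.50 for Saa2, and neither direction passed the test in any fit.

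Of the 67-base windows, 7.37% in the Saa1 transcript and 3.58% in the Saa2 transcript occur exactly in the other gene (GENCODE M21). Reads that fit both genes equally fall in HTSeq's tally of pairs without a unique alignment, and count for neither gene. That tally held 17.4% to 23.4% of pairs, and how many came from these genes was not tested. Reads were at most 67 bases long after trimming. A window stands for a single read while pairs were counted, so the window shares are not shares of pairs left out. The transcripts were 87.3% identical. With the counts of both genes summed, the log2 fold change was 0.95 (SE 0.92, adjusted p = 0.547, edgeR), between the values of the single genes. The sum does not restore reads left out of both.

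Saa3, which in mice is also made by macrophages and adipose tissue, did not follow its neighbours. It was at 22.4, 37.0, 22.05 and 42.4 CPM in AAV8-GFP mice and at 12.2, 13.1, 27.1 and 28.4 CPM in AAV8-AGXT mice. Mice 308 and 309 were the lowest, mice 316 and 319 lay among the AAV8-GFP mice, and the groups overlapped. The means were 30.9 ± 10.3 and 20.2 ± 8.73 CPM (SD, n = 4 each), with a log2 fold change of −0.61 (SE 0.32, adjusted p = 0.263, edgeR) and of −0.82 without mouse 319 (adjusted p = 0.211). Mouse 319, with 6.59 times the AAV8-GFP median of Saa1, had 0.956 times the AAV8-GFP median of Saa3.

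Saa4, the constitutive serum amyloid A gene, was at 185, 322, 357 and 392 CPM in AAV8-GFP mice and at 348, 279.6, 204 and 751 CPM in AAV8-AGXT mice. Mouse 319 was again highest, at 1.92 times the next mouse, but the other AAV8-AGXT mice lay within the AAV8-GFP range and the lowest mouse was AAV8-GFP mouse 303. Its log2 fold change was 0.33 (SE 0.38, adjusted p = 0.616, edgeR) and −0.18 without mouse 319 (SE 0.27, adjusted p = 0.738).

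The orosomucoid genes encode alpha-1-acid glycoprotein, a heavily glycosylated plasma protein that binds basic drugs and lipids. Orm1 was at 689, 740.0, 817 and 781 CPM in AAV8-GFP mice and at 521, 567, 536 and 1505 CPM in AAV8-AGXT mice. Orm2 was at 87.9, 117, 125 and 97.4 CPM in AAV8-GFP mice and at 12.1, 43.9, 44.7 and 184 CPM in AAV8-AGXT mice. Orm3 was at 31.4, 37.3, 45.4 and 35.9 CPM in AAV8-GFP mice and at 12.7, 25.5, 24.3 and 42.0 CPM in AAV8-AGXT mice. For all 3 genes mice 308, 309 and 316 lay below every AAV8-GFP mouse, and mouse 319 closed the gap between groups, above all AAV8-GFP mice for Orm1 and Orm2 and below mouse 314 for Orm3.

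The Orm genes differed in how far the low mice went. Orm1 in mice 308, 309 and 316 averaged 542 ± 23.5 CPM (SD, n = 3) against 757 ± 54.9 CPM (SD, n = 4) in AAV8-GFP mice, while Orm2 averaged 33.6 ± 18.6 against 107 ± 17.3 CPM and in mouse 308 stood 8.88-fold under the AAV8-GFP median. The log2 fold changes over all 8 mice were 0.05 for Orm1 (SE 0.33, adjusted p = 0.944, edgeR), −0.59 for Orm2 (SE 0.62, adjusted p = 0.582) and −0.52 for Orm3 (SE 0.29, adjusted p = 0.284). Without mouse 319 they were −0.48, −1.66 and −0.84, with adjusted p-values of 0.109, 0.0907 and 0.115. The sign of Orm1 also turned to −0.13 with limma-voom, to −0.02 with upper-quartile scaling and to −0.20 with total-count scaling.

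Of 7 ratios between the genes that were computed, the groups did not overlap in 2, both within the Orm cluster, and overlapped in 5. The groups did not overlap in 16.6% of all genes tested, but that share is of levels of single genes. No such share was computed for ratios. Per kilobase of transcript, the level of Orm2 relative to Orm1 was 0.127, 0.158, 0.153 and 0.1246 in AAV8-GFP mice and 0.0232, 0.0774, 0.0833 and 0.122 in AAV8-AGXT mice. The ratio of Orm3 to Orm1 was 0.0457, 0.0505, 0.0557 and 0.0461 in AAV8-GFP mice and 0.0244, 0.0450, 0.0455 and 0.0279 in AAV8-AGXT mice. For both ratios every AAV8-AGXT mouse, mouse 319 included, lay below every AAV8-GFP mouse, by 0.1221 against 0.1246 and by 0.0455 against 0.0457 for the nearest mice, so the gap was narrow. These ratios were looked at after the levels were known and were not tested. The transcripts of Orm1 and Orm2 were 91.0% identical. Of the 67-base windows, 15.9% in Orm1 and 17.2% in Orm2 occur in another Orm gene, so reads there could be left out of the counts of both genes. A window stands for a single read while pairs were counted, so these are not shares of pairs left out.

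In the Saa cluster the level of Saa1 relative to Saa2 per kilobase stayed between 1.57 in mouse 319 and 2.31 in mouse 308, while the level of Saa3 relative to Saa1 ran from 0.00966 in mouse 319 to 0.124 in mouse 308. The level of Saa4 relative to Saa1 ran from 0.0678 in mouse 319 to 0.939 in mouse 308. The levels of Saa1 and Saa2 thus kept close to the same ratio from mouse to mouse, and those of Saa3 and Saa4 relative to Saa1 did not.

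**Figure D2:**
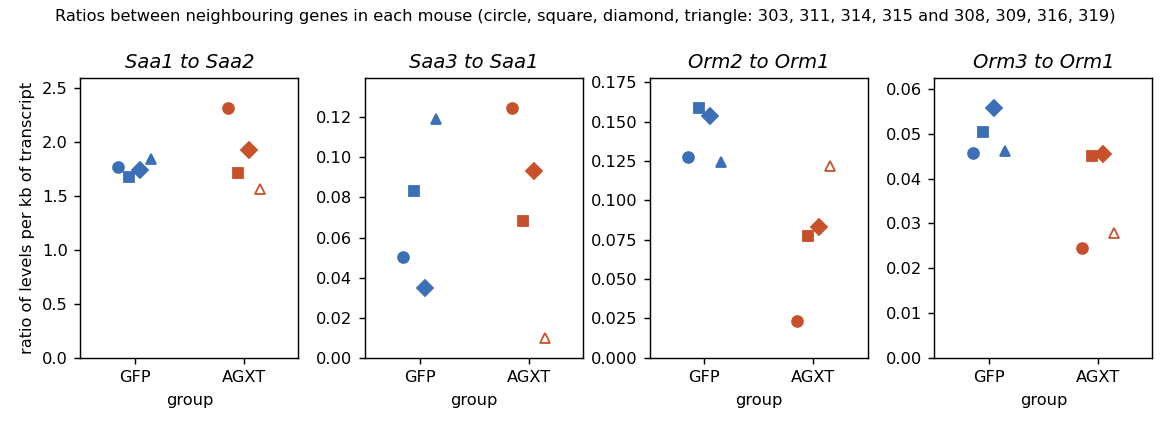
Ratios of levels per kilobase of transcript in each mouse, on axes that start at 0, for Saa1 to Saa2, Saa3 to Saa1, Orm2 to Orm1 and Orm3 to Orm1, with AAV8-GFP mice in blue, AAV8-AGXT mice in red and mouse 319 as the open triangle. The Orm2 to Orm1 ratio is 0.1246 to 0.158 in AAV8-GFP mice and 0.0232 to 0.122 in AAV8-AGXT mice, and Saa3 to Saa1 is lowest, 0.00966, in mouse 319.

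Lcn2 encodes lipocalin 2, which binds bacterial siderophores and so withholds iron. It was at 179.7, 276, 379 and 152 CPM in AAV8-GFP mice and at 17.5, 74.4, 74.5 and 402 CPM in AAV8-AGXT mice. Mice 308, 309 and 316 were below every AAV8-GFP mouse and mouse 319 was the highest of all, at 1.06 times the level of AAV8-GFP mouse 314. In mouse 308 Lcn2 stood 12.98-fold under the AAV8-GFP median, the widest distance of mouse 308 among the 10 genes. The means were 247 ± 103 and 142 ± 175 CPM (SD, n = 4 each), with a log2 fold change of −0.80 (SE 0.74, adjusted p = 0.532, edgeR) and of −2.15 without mouse 319 (SE 0.51, adjusted p = 0.0931).

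Hp encodes haptoglobin, which binds free haemoglobin, and was the most abundant of the 10 genes. It was at 5866, 6156, 7236 and 6518 CPM in AAV8-GFP mice and at 5553, 3986, 4897 and 10254 CPM in AAV8-AGXT mice. Mouse 319 was the highest, at 1.42 times the next mouse, and the other 3 AAV8-AGXT mice were below all AAV8-GFP mice, with mouse 308 close to mouse 303. The log2 fold change was −0.06 (SE 0.27, adjusted p = 0.911, edgeR) and −0.42 without mouse 319 (SE 0.18, adjusted p = 0.216).

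Crp, the gene of the pentraxin C-reactive protein, was at 238, 231, 291 and 332 CPM in AAV8-GFP mice and at 428, 366, 305 and 438 CPM in AAV8-AGXT mice. Only AAV8-AGXT mouse 316 fell within the AAV8-GFP range, below mouse 315, and mouse 308, lowest for 7 of the other genes, was the second highest. The means were 273 ± 47.8 and 384 ± 61.6 CPM (SD, n = 4 each), with a log2 fold change of 0.49 (SE 0.17, adjusted p = 0.103, edgeR), and a two-sided exact permutation test of the 70 arrangements gave p = 0.0571, where the smallest value it can give is 0.0286. Crp was the single gene of the 10 whose median was higher in AAV8-AGXT mice, and its log2 fold change without mouse 319 was 0.43 (adjusted p = 0.212).

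**Figure D3:**
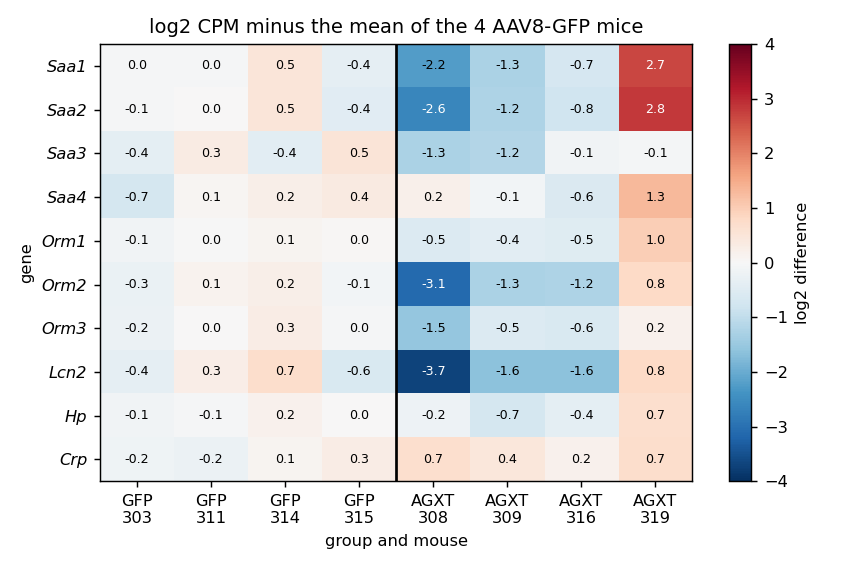
Difference between log2 CPM in each mouse and the mean log2 CPM of the 4 AAV8-GFP mice, for each gene (rows) and mouse (columns), with values printed in the cells, red above and blue below that mean. Mouse 308 reaches the lowest values, in Lcn2 and Orm2, mouse 319 the highest, in Saa1 and Saa2, and the row of Crp is above the mean in all 4 AAV8-AGXT mice.

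Over the 10 genes the median log2 fold change was −0.01 with all 8 mice and −0.83 without mouse 319, while that of all genes tested was 0.02 both times. Without mouse 319, 9 of the 10 log2 fold changes were negative, against 47.2% of all genes. An unadjusted p under 0.05 (edgeR) was found for 9 of the 10, Crp among them with a positive sign, against 21.5% of all genes. Mouse 319 was set aside because it was highest in 8 of these 10 genes, so these counts follow in part from that choice. The shares of all genes are therefore no baseline for them, and genes that move together are not separate evidence. None of the 10 reached an adjusted p under 0.05 there, where 14 genes in all did (0.0902% of genes tested). The spread of the 4 AAV8-AGXT mice, as the SD of log2 CPM, was 2.13 for Saa1, 2.33 for Saa2, 1.84 for Lcn2 and 1.60 for Orm2, against a median of 0.26 over all genes tested. In AAV8-GFP mice the SD was 0.35, 0.38, 0.60 and 0.24 for the same genes, against a median of 0.22.

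**Figure D4:**
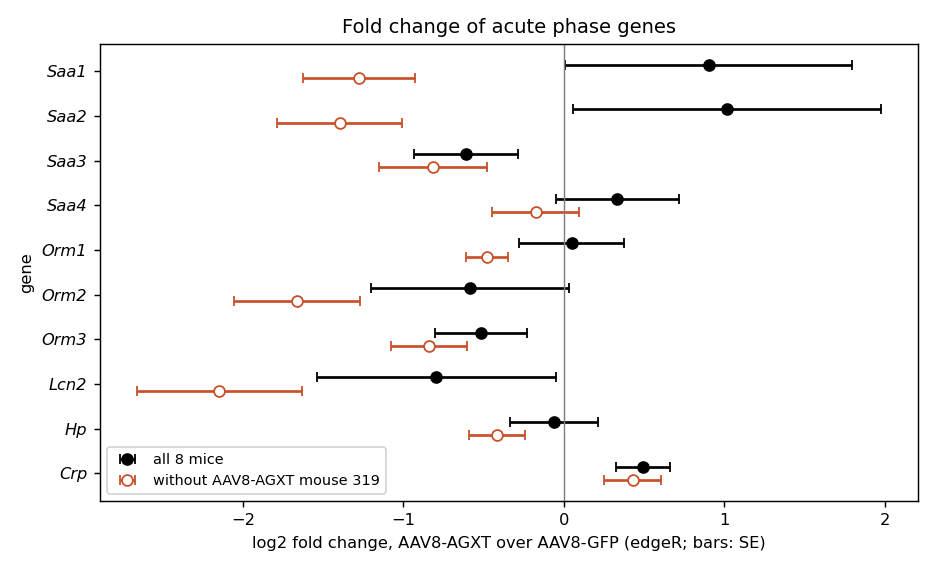
Log2 fold change of each gene, AAV8-AGXT over AAV8-GFP, from edgeR with all 8 mice (black) and without AAV8-AGXT mouse 319 (open red), with bars of 1 standard error. Saa1, Saa2, Saa4 and Orm1 change sign between the fits, and Crp stays above 0 in both.

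The 10 genes together took 0.882% to 1.14% of counted pairs in AAV8-GFP mice, 0.555% to 0.661% in AAV8-AGXT mice 308, 309 and 316, and 1.68% in mouse 319. Hp alone made up 0.908% in mouse 319. Without Hp the share was 0.242% to 0.348% in AAV8-GFP mice, 0.1252% to 0.171% in the 3 lower AAV8-AGXT mice and 0.776% in mouse 319. In CPM per kilobase of transcript, the order of the mean levels in AAV8-GFP mice was Hp (4791), Orm1 (977), Saa1 (849), Saa2 (485), Lcn2 (269.6), Crp (161), Saa4 (149.95), Orm2 (138), Saa3 (55.8) and Orm3 (48.5). Between neighbours in this order the ranges over the 4 mice overlapped, other than between Hp and Orm1 and between Orm2 and Saa3. In mouse 319 Saa1, at 5290 CPM per kilobase, came next after Hp at 7624.

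The genes whose levels followed those of Saa1 most closely over the 8 mice were found by the root mean square difference of log2 CPM after each gene was centred. Among all genes tested Saa2 was nearest to Saa1 (0.16), and Orm2 was the third nearest (0.66). Outside the 10 genes the nearest were the metallothionein gene Mt2 (0.63), the sugar phosphate exchanger gene Slc37a1 (0.69) and Fgl1 (0.71), which encodes a fibrinogen-like protein of the liver. Mt2 was at 27.5, 19.8, 36.3 and 7.41 CPM in AAV8-GFP mice and at 9.80, 6.07, 12.5 and 121 CPM in AAV8-AGXT mice. Fgl1 was at 424, 410.2, 699.6 and 308 CPM in AAV8-GFP mice and at 315, 313, 336 and 1571 CPM in AAV8-AGXT mice. In both, mouse 319 was the highest of the 8, as in Saa1.

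Lcn2 was nearest to Orm2 of all genes (0.33), then to Tm4sf20 (0.43), Gm36161 (0.58) and Milr1 (0.62) outside the 10. Those 3 genes were low, none above 4 CPM in any mouse. Saa3 was nearest to Sik1 (0.19), a salt-inducible kinase gene, Mss51 (0.21) and Tcirg1 (0.24), which encodes a subunit of the vacuolar proton pump. The distance between Saa1 and Saa3 was 1.14, which made Saa3 the 566th nearest gene to Saa1 and Saa1 the 14820th nearest to Saa3. Saa4 was nearly as far from Saa1 (1.09). The measure depends on amplitude, and Saa1 varied more over the mice (root mean square of log2 CPM around its mean 1.33) than Saa3 (0.60). These likenesses are over 8 livers in 2 groups and are given as a description.

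Of the genes next to the clusters, Gtf2h1, Ldha and Ambp were highest in mouse 319, as were 11.9% of all genes tested. Saal1, Hps5 and Sergef beside the Saa cluster and Kif12, Col27a1, Akna, Whrn and Atp6v1g1 beside the Orm cluster were highest in other mice. None of these neighbours, 3 on each side of each cluster, passed the test, and Tph1 was not tested.

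Among 35 other positive acute phase proteins, 32 were tested, of which 2 rose, none fell and 30 did not pass the test, a share near the 4.35% called among all genes. DESeq2 called 5 higher and 2 lower. The 2 that rose were the alpha-1-antitrypsin paralogs Serpina1d (log2 fold change 1.07, SE 0.23, adjusted p = 0.0388, edgeR) and Serpina1e (2.26, SE 0.53, adjusted p = 0.0461), whose reads may be shared with near-identical copies. These calls were kept in 3 and 1 of the 8 fits with a mouse left out. The median log2 fold change of the 32 was 0.24, and −0.15 without mouse 319. Mouse 319 was the highest mouse in 19 of the 32, against 11.9% of all genes tested. Chosen after their values were seen, Itih3, Itih4, Lrg1 and Fgl1 stood at 2.25, 2.03, 2.12 and 2.25 times the level of the next mouse there. Of all genes tested, 0.761% were highest in mouse 319 by at least 1.5 times the next mouse, among them Saa1, Saa2, Saa4 and Orm1.

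All 17 genes listed as negative acute phase proteins, which hepatocytes make less of during inflammation, were tested. The list also holds the cytochrome P450 genes Cyp2e1, Cyp7a1 and Cyp8b1, which encode enzymes and not plasma proteins. Of the 17, 2 rose, 1 fell and 14 did not pass, against 2.45% higher and 1.9% lower among all genes tested. DESeq2 called 4 higher and 1 lower, against 12.9% of all genes it gave a value for. Cyp2e1, a cytochrome P450, rose by 1.15 on the log2 scale (SE 0.16, adjusted p = 0.0198, edgeR), from 5449.7 ± 392 to 12061 ± 1443 CPM (SD, n = 4 each). Apom, an apolipoprotein of high-density lipoprotein, rose by 1.17 (SE 0.22, adjusted p = 0.0335). Serpina7, the thyroxine-binding globulin gene, fell by 1.31 (SE 0.30, adjusted p = 0.0449). With a mouse left out these calls were kept in 5, 3 and 2 of the 8 fits. In Cyp2e1 and Serpina7 mouse 319 lay with the other AAV8-AGXT mice, at 11878 and 102 CPM, unlike in Saa1 or Orm1. The median of the list was 0.34, and 0.33 without mouse 319.

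Of 12 cytokine genes that induce the response, 6 were tested and 0 passed with edgeR, where 2 had an unadjusted p under 0.05 and DESeq2 called 2 lower. Il6 was between 0 and 0.276 CPM in all mice and was not tested. Il1b was at 10.7, 7.59, 3.64 and 9.61 CPM in AAV8-GFP mice and at 8.15, 4.03, 8.63 and 16.5 CPM in AAV8-AGXT mice, highest in mouse 319 with overlapping groups (log2 fold change 0.24, adjusted p = 0.751, edgeR). Of 13 receptor genes tested, 0 rose and 1 fell (2 higher and 1 lower by DESeq2). The gene that fell was Il10rb (−0.92, SE 0.19, adjusted p = 0.0363), a shared receptor chain for interleukin 10 and related cytokines, which kept its call in 4 of the 8 fits with a mouse left out. The interleukin 6 receptor gene Il6ra was higher in every AAV8-AGXT mouse than in any AAV8-GFP mouse, at 30.5 ± 9.78 and 51.7 ± 15.8 CPM (SD, n = 4 each), and did not pass the test (log2 fold change 0.76, adjusted p = 0.118).

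Of 23 transducers and transcription factors of the response, all tested, 2 rose and 3 fell, against 2.45% and 1.9% of all genes tested. DESeq2 called 3 higher and 3 lower, against 12.9% of all genes it gave a value for. The list was drawn up with earlier results of these data known, so these shares are a description. The liver factors Cebpa (0.50, SE 0.11, adjusted p = 0.0429, edgeR) and Creb3l3 (0.70, SE 0.17, adjusted p = 0.0486), the latter named after its values were seen, rose. Of the genes that fell, Nfkb2 (−0.82, SE 0.15, adjusted p = 0.0334) and Relb (−1.18, SE 0.26, adjusted p = 0.0410) encode the partners of non-canonical NF-kB, and Stat5a (−0.50, SE 0.09, adjusted p = 0.0341) a signal transducer of growth hormone and cytokines. With a mouse left out, Nfkb2 kept its call in 5 of the 8 fits, Stat5a in 3, Relb in 2 and Cebpa and Creb3l3 in 1 each. Stat3 did not pass the test, at 75.7, 95.2, 153 and 110.3 CPM in AAV8-GFP mice and 84.1, 112, 86.1 and 166 CPM in AAV8-AGXT mice (log2 fold change 0.05, adjusted p = 0.931). Cebpb did not pass either (0.28, adjusted p = 0.29).

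Of 16 feedback inhibitors and direct STAT3 targets tested, 0 rose, 1 fell and 15 did not pass (0 higher and 1 lower by DESeq2). The gene that fell was Tnfaip3, an inhibitor of NF-kB signalling (−1.10, SE 0.21, adjusted p = 0.0341, edgeR), a call kept in 4 of the 8 fits with a mouse left out. Socs3, the feedback inhibitor of interleukin 6 signalling, was at 25.6, 39.9, 53.0 and 28.3 CPM in AAV8-GFP mice and at 26.2, 49.0, 36.4 and 42.5 CPM in AAV8-AGXT mice (log2 fold change 0.07, adjusted p = 0.886). In mouse 319, 2 of these 16 genes were above every AAV8-GFP mouse, 7 below every AAV8-GFP mouse and 7 in between. None was the highest of the 8 mice there, against 11.9% of all genes tested, and with 16 genes this count is a description.

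Of 15 receptors and partners of acute phase proteins tested, 1 rose and none fell (1 higher and 1 lower by DESeq2). The gene that rose was Cd163, the macrophage receptor for haptoglobin bound to haemoglobin, at 1.44, 0.888, 0.646 and 1.41 CPM in AAV8-GFP mice and at 11.3, 14.8, 4.57 and 34.0 CPM in AAV8-AGXT mice (log2 fold change 3.88, SE 0.58, adjusted p = 0.0236, edgeR). Every AAV8-AGXT mouse was above every AAV8-GFP mouse, mouse 319 was the highest, and Cd163 also passed the test without it (adjusted p = 0.0394) and in 6 of the 8 fits with a mouse left out. No other call in these lists held without mouse 319, and none held without AAV8-GFP mouse 311 or without AAV8-GFP mouse 314, when few genes passed in all. Hp, the ligand, was highest in the same mouse but lower in mice 308, 309 and 316 than in AAV8-GFP mice.

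**Figure D5:**
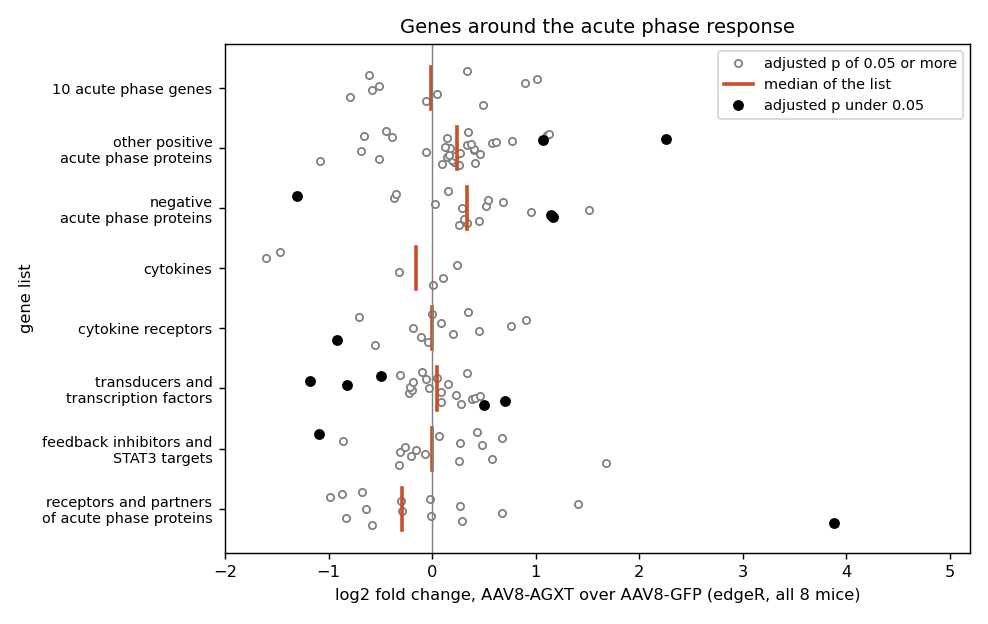
Log2 fold change of each gene tested, AAV8-AGXT over AAV8-GFP, in the 10 acute phase genes and 7 lists around the response, with black points for an adjusted p under 0.05, open points otherwise and a red line at each list's median. No point is black among the 10 acute phase genes, and the black point farthest to the right is Cd163 at 3.88.

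Sums of the markers of other liver cells went with the levels of some of these genes in part of the lists and not in others. Of 14 neutrophil markers 6 were tested and 0 passed with edgeR (2 with an unadjusted p under 0.05, 2 by DESeq2). Their summed levels were 26.7 to 40.6 CPM in AAV8-GFP mice and 9.11 to 28.0 CPM in AAV8-AGXT mice, lowest in mouse 308 and highest of its group in mouse 319, and Ly6g was at 0 in all mice but 319 (0.142 CPM). Of 16 macrophage and Kupffer cell markers 0 passed with edgeR (7 with an unadjusted p under 0.05, 5 by DESeq2). Among all genes tested, 26.2% had an unadjusted p under 0.05, and DESeq2 called 12.9% of the genes it gave a value for. Their summed levels were 966 to 1629.9 CPM in AAV8-GFP mice and 400.2 CPM in mouse 308 to 1478 CPM in mouse 319, and 7 were highest in mouse 319. Means were lower under AAV8-AGXT for 11 of the 16 (median over the list −0.67 on the log2 scale), and 13 were lowest in mouse 308. In mouse 319 the list was divided: 7 genes (Adgre1, Csf1r, Clec4f, Timd4, Cd5l, Vsig4 and Marco) were above every AAV8-GFP mouse, 7 (Cd68, Lyz2, Trem2, Gpnmb, Ccr2, Itgax and Cd14) below every AAV8-GFP mouse, and 2 in between. Named after its values were seen, the scavenger receptor gene Marco was at 156 CPM in mouse 319 and between 0.554 and 12.4 CPM in the other mice. Both sums are lowest in mouse 308 and, within AAV8-AGXT, highest in mouse 319, as Saa1, Saa2, Orm2 and Lcn2 are, and their part in those levels was not tested.

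Cholangiocyte markers were lower on average in AAV8-AGXT mice for 9 of 9 genes tested, of which 0 passed with edgeR, 8 had an unadjusted p under 0.05 and 6 passed with DESeq2, with sums of 231 to 696 and 76.8 to 283 CPM, the lowest in mouse 308, where 7 of the 9 genes were lowest. Of 10 stellate cell and fibroblast markers, Acta2 and Timp1 fell, in 0 and 2 of the 8 fits with a mouse left out, with sums of 401 to 800.1 and 87.5 to 371 CPM, the lowest in mouse 308, where 9 of the 10 genes were lowest, and none was highest in mouse 319. Mouse 308 was the lowest in 20.6% of all genes tested. In mouse 319 the cholangiocyte sum was 136 CPM and the stellate cell and fibroblast sum 171 CPM, both below every AAV8-GFP mouse. Of the stellate cell and fibroblast markers, 9 had an unadjusted p under 0.05 (edgeR), and DESeq2 called 3 lower. In 6 of them the groups did not overlap, against 16.6% of all genes. An unadjusted p under 0.05 was found for 26.2% of all genes tested. DESeq2 called 12.9% of the genes it gave a value for. Of 8 adipocyte markers 4 were tested and Cfd and Lipe rose, each in 2 of the 8 fits with a mouse left out. The adipocyte sums were 95.9 to 286 and 230.3 to 382 CPM, alike in mouse 308 (381.8 CPM) and mouse 319 (381.7 CPM). Lep was at 0 in every mouse. Of 8 sinusoidal endothelial markers 0 passed with edgeR, 0 had an unadjusted p under 0.05 and 0 passed with DESeq2. The endothelial sums were 174 to 279 and 171 to 345 CPM, highest of the 8 mice in mouse 308 and lowest in mouse 319, opposite to Saa1. The part of these cell types in the levels of the acute phase genes was not tested.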

How the data were processed

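Stranded mRNA libraries of 8 livers were read from both ends. Per the study's methods, pairs were trimmed with Trimmomatic 0.35, mapped with HISAT2 2.1.0.13 to GRCm38 and counted on Ensembl genes with HTSeq. The strand option of the counting is not given in the sources used here. The deposited values are raw read counts per gene, which the authors neither normalised nor filtered. They were checked to be whole numbers. HTSeq's tallies of pairs not assigned to a gene (30.9% to 43.7% of pairs) were kept out of library sizes. The largest tally was of pairs without a unique alignment (17.4% to 23.4%), and pairs on no gene made up 4.55% to 6.47%.

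Of 52636 genes, 52403 were matched to GENCODE M21, and all 10 acute phase genes were found. Genes passing filterByExpr (15248, the 10 among them) were tested with edgeR 4.0.16 (R 4.3.3; TMM scaling, quasi-likelihood test, treatment as the only term), with Benjamini-Hochberg adjustment over all of them and a call at an adjusted p under 0.05. CPM values use TMM-scaled library sizes, and log2 CPM a prior count of 2. Alternatives were DESeq2 1.42.0, limma 3.58.1, other scalings and filters, summed paralogs, and leaving out each mouse. Intervals for single mice are not given, since the spread between mice far exceeds counting error at these counts.

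The 10 genes, the gene lists and the tests were chosen with earlier results of these data known. Named are the 10 genes, called genes of each list (up to 4), Il6, Il1b, Il6ra, Stat3, Socs3 and Cebpb, the genes nearest to Saa1, Saa3 and Lcn2 in pattern, and cluster neighbours. Creb3l3 (the fifth called gene of its list), Itih3, Itih4, Lrg1 and the single macrophage markers were named after their values were seen, and Ly6g and Lep for being at or near 0. Nothing says whether mice shared cages or processing days.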

Additional observations from a re-analysis of the deposited data

Results flagged for a closer look

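In the AAV8-AGXT group the level of mouse 319 stood apart from the other 3 mice by Dixon's test for Saa1 (3221 CPM), Saa2 (2198 CPM), Orm1 (1505 CPM) and Lcn2 (402 CPM). The gap to the nearest mouse, as a share of the group's whole range, was above the critical value for 4 samples in each case. These were 4 of the 20 sets looked at (10 genes in 2 groups), and chance flags about 1 in 20 sets where values follow a normal distribution. The test was run on CPM and not on log2 CPM, on which high values stand less far apart. All 4 come from the same mouse, in which these genes were high together, so the sets are not independent and the 4 are not separate evidence. No AAV8-GFP mouse stood apart for any of the genes, nor did any mouse for Saa3, Saa4, Orm2, Orm3, Hp or Crp, although mouse 319 was also the highest of the 8 mice for Saa4, Orm2, Hp and Crp.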

How the results depend on the processing

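Of 172 recomputed log2 fold changes of the 10 acute phase genes, 156 kept their direction and their side of the threshold, 15 turned direction and 1 passed the threshold. The last was Crp with DESeq2. The direction of Saa1 turned to −0.42 with limma-voom and to −0.17 with limma's quality weights, that of Saa2 to −0.50 and −0.25, and that of Orm1 to −0.13 and −0.11. Orm1 also turned to −0.0174 with upper-quartile scaling, to −0.20 with total counts, which moved the median of all genes to −0.22, and to −0.0352 with the counts of the 3 Orm genes summed. Leaving out each mouse in turn gave ranges of −1.28 to 1.26 for Saa1, −1.40 to 1.39 for Saa2, −0.18 to 0.55 for Saa4, −0.48 to 0.20 for Orm1 and −0.42 to 0.0828 for Hp, and the lowest value came without mouse 319 each time. For Hp the sign was positive without mouse 309 or mouse 316 (0.0828 and 0.0384). Saa3, Orm2, Orm3 and Lcn2 stayed below 0 and Crp above 0 in every fit run. None of the 10 genes passed the threshold in any fit that left out a mouse. The number of them whose groups did not overlap ran from 0 to 7, with 7 without mouse 319 and 1 each without AAV8-GFP mouse 315 and without AAV8-AGXT mouse 316.

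Over all genes, 374 were called higher and 290.0 lower. DESeq2 called 1068 and 1033, limma's quality weights 804 and 606, and total-count scaling 144 and 857. With a mouse left out, 2 to 379 were called higher and 0 to 325 lower, fewest without AAV8-GFP mouse 311. Among the genes of the 7 lists around the response, 7 were called higher and 6 lower. DESeq2 called 15 and 11, limma's quality weights 10 lower and total counts 12 lower, and with a mouse left out 0 to 6 were called higher and 0 to 6 lower. DESeq2 called 1 of the 10 acute phase genes higher. The causes of these changes were not tested. With 4 mice per group and no fewer than 175 counts of any of the 10 genes in any mouse, the spread between mice exceeded counting error. No paired analysis was possible because the groups share no replicate numbers.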
